A study of Mus musculus with 2 samples.

Results

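The noncoding transcripts of mouse gastrocnemius muscle were taken as the array probes that carry a RefSeq noncoding accession (NR_) and whose gene has no RefSeq coding transcript (NM_). H19, Meg3, Rian, Mirg and 2310065F04Rik were left out. This gave 1321 genes on the array, of which 698 were well above background on at least 1 array, out of 16660 named genes detected in all. By the gene table, 556 of the 698 were long noncoding RNAs (lncRNAs), 130 were transcribed pseudogenes and 12 had other types, such as small nuclear RNAs.

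Male mice of 2 groups were compared, FOXO1-Tg mice, which overexpress FOXO1 in skeletal muscle, and wild-type control mice, both 25 weeks of age. RNA from the gastrocnemius was pooled within each group, from 5 FOXO1-Tg mice and 6 wild-type mice, and each pool was labeled with Cy3 and hybridized to 1 Agilent whole mouse genome array. The study asked how FOXO1 overexpression changes gene expression in muscle, which is atrophic in these mice. With 1 pooled array per group there are no replicates, so no test was possible and differences between mice within a group were not measured.

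Noncoding RNAs act without being translated. Some lncRNAs stay in the nucleus, where they build bodies such as paraspeckles or silence nearby genes on the same chromosome. Other noncoding transcripts are chiefly carriers of small RNAs: snoRNA host genes hold small nucleolar RNAs in their introns, and microRNA host genes hold microRNA hairpins. Many lncRNAs start close to a coding gene on the opposite strand and share its promoter region, and pseudogenes are copies of coding genes that have lost their reading frame. FOXO1 is a forkhead transcription factor that is active in muscle during fasting and atrophy and binds DNA with the core letters GTAAACA.

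The promoter windows of 5 lncRNAs are shown because each lies beside a coding gene that is described with it below. They are RefSeq sequences of GRCm38.p6, from 250 bases before the annotated start to 50 bases after it, and the capitals mark the bases from the start onward. 2810408I11Rik is at chr1:64690610-64690909 (minus strand), Gm5144 at chr15:11906275-11906574 (plus), Snhg18 at chr15:32244613-32244912 (minus), Dgkeos at chr11:89060501-89060800 (plus) and E230016M11Rik at chr6:67036349-67036648 (plus).
2810408I11Rik: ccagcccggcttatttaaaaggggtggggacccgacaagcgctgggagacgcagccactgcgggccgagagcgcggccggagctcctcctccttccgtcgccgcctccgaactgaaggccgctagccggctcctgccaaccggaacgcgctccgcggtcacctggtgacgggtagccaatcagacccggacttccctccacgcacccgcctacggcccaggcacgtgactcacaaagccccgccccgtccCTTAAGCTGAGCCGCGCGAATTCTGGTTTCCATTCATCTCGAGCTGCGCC
Gm5144: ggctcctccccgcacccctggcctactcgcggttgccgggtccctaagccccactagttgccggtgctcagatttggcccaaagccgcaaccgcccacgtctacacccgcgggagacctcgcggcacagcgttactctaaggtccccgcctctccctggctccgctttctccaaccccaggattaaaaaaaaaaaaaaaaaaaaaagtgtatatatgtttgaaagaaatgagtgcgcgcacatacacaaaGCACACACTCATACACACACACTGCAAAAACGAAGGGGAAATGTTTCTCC
Snhg18: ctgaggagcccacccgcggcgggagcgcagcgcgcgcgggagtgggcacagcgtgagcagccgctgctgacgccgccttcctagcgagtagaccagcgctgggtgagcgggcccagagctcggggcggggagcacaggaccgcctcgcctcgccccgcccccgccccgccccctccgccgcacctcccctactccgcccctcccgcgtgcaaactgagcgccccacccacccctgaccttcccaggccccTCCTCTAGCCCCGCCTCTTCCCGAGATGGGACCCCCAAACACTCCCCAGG
Dgkeos: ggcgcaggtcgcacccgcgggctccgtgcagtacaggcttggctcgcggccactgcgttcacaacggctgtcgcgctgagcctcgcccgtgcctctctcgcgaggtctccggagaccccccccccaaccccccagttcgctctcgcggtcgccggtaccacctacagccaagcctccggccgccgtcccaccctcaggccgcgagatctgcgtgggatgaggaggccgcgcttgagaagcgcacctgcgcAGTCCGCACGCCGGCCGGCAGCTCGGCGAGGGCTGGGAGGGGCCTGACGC
E230016M11Rik: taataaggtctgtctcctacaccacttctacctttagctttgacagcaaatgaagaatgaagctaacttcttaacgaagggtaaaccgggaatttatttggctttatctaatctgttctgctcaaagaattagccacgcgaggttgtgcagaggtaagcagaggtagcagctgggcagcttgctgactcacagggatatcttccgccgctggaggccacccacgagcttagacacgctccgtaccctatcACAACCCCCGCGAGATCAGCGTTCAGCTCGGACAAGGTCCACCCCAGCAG

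The Snhg18 window shared 250 bases with that of Sema5a, whose start lies 151 bases away on the other strand, and the Dgkeos window shared 102 bases with that of Dgke, whose start lies 3 bases away. The starts of 2810408I11Rik and Ccnyl1 were 686 bases apart, those of Gm5144 and Npr3 846 bases, and those of E230016M11Rik and Gadd45a 808 bases, and their windows did not overlap. GC content was 75.3% in the Snhg18 window, 73.3% in that of Dgkeos, 67.3% in that of 2810408I11Rik, 53.7% in that of Gm5144 and 50.7% in that of E230016M11Rik, against a median of 52.7% over all 32851 promoter windows of the table. No window of the 5 held GTAAACA on either strand.

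The letters GTAAACA were present on either strand in 1199 of the 32851 windows (3.65%) and in 16 of the 506 windows of detected noncoding genes (3.16%). The longer forkhead string TTGTTTAC, whose matches all hold GTAAACA on the opposite strand, was present in 1.23% of all windows and in 8 of the 506 (1.58%). Neither string was found in the 25 windows (22 genes) of noncoding genes more than 2-fold higher in FOXO1-Tg muscle or in the 36 windows (34 genes) of those more than 2-fold lower. At 3.65%, few windows of such small sets would hold the letters, and a window without them says nothing about binding of the factor there.

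Among the genes that hold microRNAs, 9 detected host transcripts contained 17 hairpins of the table on the same strand, which give 30 mature sequences with 28 different seeds. The mature microRNAs themselves were not measured. The following are shown because their hosts are described below, with the seed (bases 2 to 8) in capitals. They come from Mir22hg (miR-22), Mir17hg (miR-92a), Dnm3os (miR-199a and miR-214), Mir100hg (miR-100 and miR-125b), Dleu2 (miR-16) and D7Ertd143e, the host of the miR-290 cluster.
miR-22-3p: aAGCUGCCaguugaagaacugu
miR-92a-3p: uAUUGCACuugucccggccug
miR-199a-3p: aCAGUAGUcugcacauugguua
miR-214-3p: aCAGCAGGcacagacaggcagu
miR-100-5p: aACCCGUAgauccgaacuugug
miR-125b-5p: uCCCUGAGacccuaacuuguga
miR-16-5p: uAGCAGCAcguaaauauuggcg
miR-292a-5p: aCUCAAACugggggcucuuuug
miR-293-5p: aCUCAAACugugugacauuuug
miR-294-3p: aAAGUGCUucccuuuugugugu
miR-295-3p: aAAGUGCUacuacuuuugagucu

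The first 7 have a seed each of their own. In the D7Ertd143e cluster miR-292a-5p and miR-293-5p share the seed CUCAAAC, and miR-294-3p and miR-295-3p share AAGUGCU.

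The signals below are the processed signals of the scanner in arbitrary units, and the log2 ratio is FOXO1-Tg over wild-type after each array was divided by its own 75th percentile (844 in the FOXO1-Tg pool and 771 in the wild-type pool). The error given with a ratio is the scanner's own error of both spots, which was at least 0.20 for every noncoding gene and 0.21 in the median. It covers neither the labeling nor the mice. The signal of one probe was not set against that of another as an amount of RNA. As a check of the labels, the main Foxo1 probe gave 279457 in the FOXO1-Tg pool and 4540 in the wild-type pool (log2 ratio 5.81). A second Foxo1 probe gave 3188 in the FOXO1-Tg pool and 2853 in the wild-type pool (0.03).

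Noncoding genes moved in both directions. In all, 32 of the 698 noncoding genes (4.58%) were more than 2-fold higher in FOXO1-Tg muscle, where 4.21% of all named genes were, and 52 (7.45%) were more than 2-fold lower, where 3.86% of all named genes were. A gene detected on only 1 array was counted where its lower bound passed 2-fold, and 15 of the 32 and 24 of the 52 were of this kind. Among the 588 noncoding genes detected on both arrays, 17 (2.89%) were higher, against 3.41% of named genes, and 28 (4.76%) were lower, against 2.56%. The share of higher genes was thus close to that of the whole array, and the share of lower genes was above it. The split of the calls depended on the scaling. With median scaling the split was 40 higher and 42 lower, without scaling 40 and 39, and after quantile normalization 44 and 32, so that the share of higher genes among the calls was 38.1% as scaled here, 48.8% with median scaling, 50.6% without scaling and 57.9% after quantile normalization. The share of lower noncoding genes stayed above that of all named genes under these scalings: 6.02% against 3.04% with median scaling, 5.59% against 2.94% without scaling and 4.58% against 2.70% after quantile normalization. With normexp background correction and quantile normalization, which draws dim signals together, the shares were nearly equal (1.29% of noncoding and 1.28% of all named genes).

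The median log2 ratio of the noncoding genes on both arrays was −0.15 (quartiles −0.45 and 0.15), against −0.07 over all named genes. Most ratios were small: 409 of the 588 lay within 0.5 of zero, and 218 were smaller than their own scanner error. Of the 588, 379 (64.5%) were below zero, against 58.3% of all named genes. Median scaling and no scaling raised every ratio alike, by 0.11 and 0.13, so the distance between both medians could not change under them. The noncoding median minus that of all named genes was −0.08 as scaled here. It was −0.06 after quantile normalization and −0.03 with normexp and quantile normalization.

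Noncoding genes were dim on this array. Only 52.8% of them were detected, against 79.9% of genes with a coding transcript, and their median signal was 97.4 in the FOXO1-Tg pool and 96.4 in the wild-type pool, where all named genes had 843 in the FOXO1-Tg pool and 759 in the wild-type pool. The named genes were split by signal into 3 tiers of equal size, and 447 (64.0%) of the 698 lay in the dim tier. In that tier 24 (5.37%) were higher and 46 (10.3%) lower, against 7.31% and 8.13% of the other genes. In the middle tier 7 of 169 (4.14%) were higher and 3 (1.78%) lower, against 3.64% and 1.95%, and in the bright tier 1 of 82 (1.22%) was higher and 3 (3.66%) lower, against 1.83% and 1.30%. Most of the lower calls therefore came from dim genes. Where the signal reached 100 on at least 1 array, a limit chosen after the values were seen, 20 of 369 noncoding genes were higher (5.42%, with 3.94% of all named genes) and 13 were lower (3.52%, with 2.23%).

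**Figure D1:**
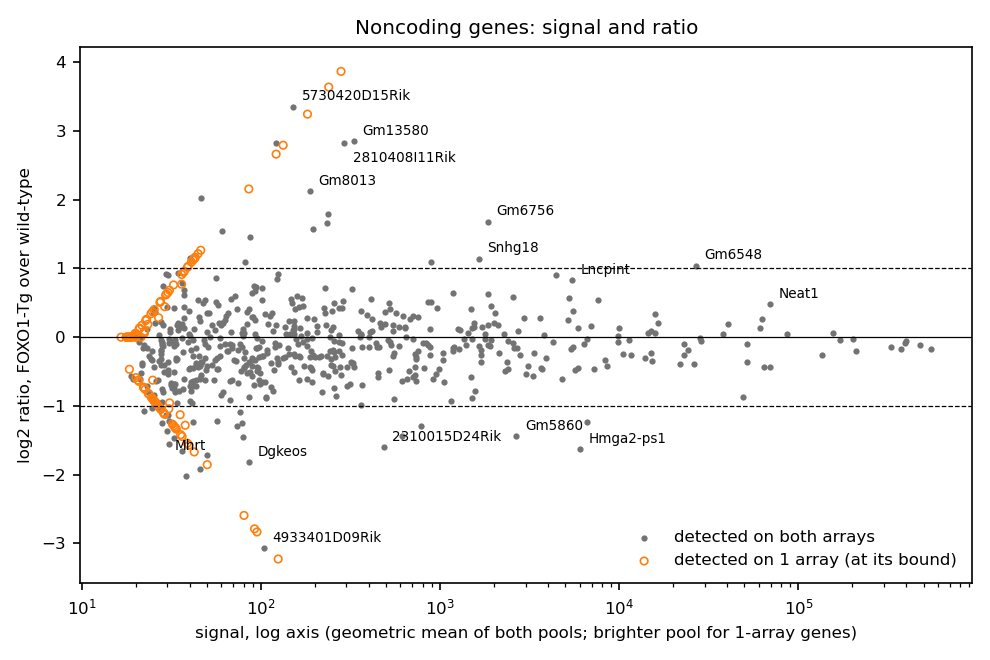
FOXO1-Tg over wild-type log2 ratio against signal (log axis) for the 698 detected noncoding genes. Grey points were detected on both arrays, orange circles on 1 array and are drawn at their bound, and dashed lines mark 2-fold. Most genes beyond 2-fold lie at signals under 1000, and Gm6548 is the only higher gene in the bright tier.

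Marker genes of some other cell types were higher as well in FOXO1-Tg muscle. For adipocytes 9 of 10 markers passed 2-fold, with a summed signal of 309904 in the FOXO1-Tg pool and 105001 in the wild-type pool. Of 9 Schwann cell markers 4 were more than 2-fold higher (summed signal 103410 in the FOXO1-Tg pool and 73094 in the wild-type pool). Of 10 keratinocyte markers 6 were higher and 1 was lower (17475 in the FOXO1-Tg pool and 13492 in the wild-type pool). None of the 8 endothelial, 7 macrophage or 7 fibroblast markers passed 2-fold, with medians of −0.20, 0.32 and 0.50. All 10 muscle fiber markers were detected on this labeled muscle, and 1 was more than 2-fold lower, with a summed signal of 4174160 in the FOXO1-Tg pool and 4277110 in the wild-type pool. The part of these cell types in the noncoding results was not tested, and fewer cells of a type cannot be told apart from less RNA per cell.

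The highest ratio on both arrays was that of 5730420D15Rik, a lncRNA on chromosome 10, with a signal of 507 in FOXO1-Tg muscle and 45.4 in wild-type muscle (log2 ratio 3.35 ± 0.24). A further 3 lncRNAs were also far apart between the pools. Gm13580, on chromosome 2, had 927 in FOXO1-Tg muscle and 117 in wild-type muscle (2.86 ± 0.21). AI847159, also on chromosome 2, had 336 in FOXO1-Tg muscle and 43.4 in wild-type muscle (2.82 ± 0.25). 2810408I11Rik, on chromosome 1, had 812 in FOXO1-Tg muscle and 105 in wild-type muscle (2.82 ± 0.21). These 4 ratios correspond to 10.2-, 7.24-, 7.07- and 7.05-fold, and in each the wild-type signal was low but above background. No role is given here for any of the 4.

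The next lncRNAs were Gm8013, with 409 in FOXO1-Tg muscle and 85.6 in wild-type muscle (2.13), and Ctcflos, the opposite-strand transcript of the testis factor gene Ctcfl, with 97.3 in FOXO1-Tg muscle and 21.8 in wild-type muscle (2.03 ± 0.34). Ctcfl itself was dim on both arrays, with 36.3 in FOXO1-Tg muscle and 21.0 in wild-type muscle (0.66 ± 0.35). Gm5144 had 463 in FOXO1-Tg muscle and 122 in wild-type muscle (1.80 ± 0.21), BC031361 had 437 in FOXO1-Tg muscle and 126 in wild-type muscle (1.67 ± 0.21) and 4931408D14Rik had 150 in FOXO1-Tg muscle and 49.8 in wild-type muscle (1.46 ± 0.24). All of these lay further from zero than their scanner error.

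The other 3 of the 12 highest were transcribed pseudogenes. Gm6756 had 3459 in FOXO1-Tg muscle and 986 in wild-type muscle (1.68 ± 0.20). Gm8096 had 351 in FOXO1-Tg muscle and 108 in wild-type muscle (1.57), and Gm7444 had 108 in FOXO1-Tg muscle and 33.9 in wild-type muscle (1.54). A pseudogene can share sequence with its parent gene, and the probe sequences were not used here, so a parent transcript cannot be told apart from the pseudogene in these signals.

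The lowest ratio among genes detected on both arrays was that of 4933401D09Rik, a lncRNA on chromosome 17, with 37.7 in FOXO1-Tg muscle and 289 in wild-type muscle (−3.07 ± 0.25, 8.39-fold lower). The next gene detected on both arrays, A230009B12Rik, had 19.7 in FOXO1-Tg muscle and 73.2 in wild-type muscle (−2.02 ± 0.31). Dgkeos, the opposite-strand transcript of the diacylglycerol kinase gene Dgke, had 47.9 in FOXO1-Tg muscle and 154 in wild-type muscle (−1.81 ± 0.24). Several of the lowest genes were close to the detection limit in FOXO1-Tg muscle. 4930509E16Rik, AU019990, Gm3230 and Gm11981 had 28.8, 21.2, 18.8 and 20.6 in FOXO1-Tg muscle and, in the same order, 86.3, 61.3, 50.3 and 52.1 in wild-type muscle (−1.71, −1.66, −1.55 and −1.47).

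A few of the lowest genes had signals well clear of background in both pools. Hmga2-ps1, a transcribed pseudogene named after the chromatin protein gene Hmga2, had 3608 in FOXO1-Tg muscle and 10221 in wild-type muscle (−1.63 ± 0.20). 2310015D24Rik, a lncRNA on chromosome 16, had 291 in FOXO1-Tg muscle and 805 in wild-type muscle (−1.60 ± 0.20), and its second probe gave 243 in FOXO1-Tg muscle and 622 in wild-type muscle (−1.48 ± 0.21). Gm2176, a pseudogene, had 390 in FOXO1-Tg muscle and 964 in wild-type muscle (−1.44 ± 0.20). AW011738 was dim but also had 2 probes, which gave −1.46 and −1.24, and the pseudogene Mospd4 had 24.6 in FOXO1-Tg muscle and 85.1 in wild-type muscle (−1.92 ± 0.27).

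**Figure D2:**
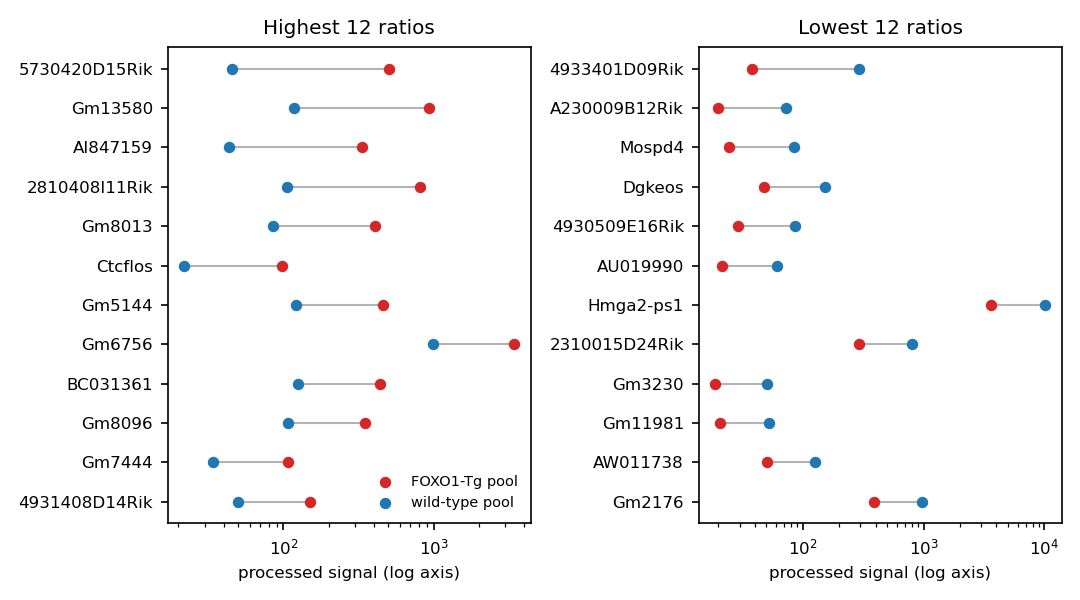
Processed signal (log axis) in the FOXO1-Tg pool (red) and the wild-type pool (blue) for the 12 highest (left) and 12 lowest (right) log2 ratios among noncoding genes detected on both arrays. Each row is 1 gene and each point 1 pooled array. Gm6756 (3459 in FOXO1-Tg and 986 in wild-type) and Hmga2-ps1 (3608 in FOXO1-Tg and 10221 in wild-type) have the highest signals of their panels.

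Genes seen on 1 array only gave bounds. BC051537 had 280 in FOXO1-Tg muscle and a signal of 4.70, not well above background, in wild-type muscle, and was at least 14.6-fold higher. Gm10432 had 239 in FOXO1-Tg muscle and 9.57 in wild-type muscle (at least 12.4-fold higher), Gm10445 had 182 in FOXO1-Tg muscle and 3.59 in wild-type muscle (at least 9.47-fold) and A230056J06Rik had 133 in FOXO1-Tg muscle and 14.4 in wild-type muscle (at least 6.93-fold). All 4 are lncRNAs, and their bounds rest on the lowest signal that was well above background on the wild-type array, 17.5. On the lower side, Gm10373 had 8.06, not well above background, in FOXO1-Tg muscle and 125 in wild-type muscle, and was at least 9.36-fold lower. C530005A16Rik had 14.3 in FOXO1-Tg muscle and 95.0 in wild-type muscle, 1500012K07Rik had 11.8 in FOXO1-Tg muscle and 92.0 in wild-type muscle, and 1700091H14Rik had 9.92 in FOXO1-Tg muscle and 80.4 in wild-type muscle. Against a limit of 14.6 on the FOXO1-Tg array these 3 lncRNAs were at least 7.12-, 6.90- and 6.03-fold lower. These bounds depended on the processing. With normexp and quantile normalization the same 3 gave log2 values of −0.88, −0.87 and −0.76, within 2-fold, and Gm10373 gave −1.05. The 4 higher lncRNAs then lay between 1.21 and 2.09. Outside the rule for named genes, Flicr, a lncRNA described in mouse regulatory T cells, was picked after its values were seen: it had 121 in FOXO1-Tg muscle and 9.37, not well above background, in wild-type muscle (at least 6.33-fold higher).

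Near the threshold, the measured genes just inside were Gm6548 (1.04) and 2900079G21Rik (1.09) on the higher side and Gm16863 (−1.03) and 4930412O13Rik (−1.04) on the lower side. Just outside were Mccc1os (0.93), Gm3002 (0.91), 3300002P13Rik (−0.98) and 4930431P03Rik (−0.96). All but Gm6548 and 3300002P13Rik had signals under 130 in both pools. Gm6548, a transcribed pseudogene on chromosome 17, had 40019 in FOXO1-Tg muscle and 17761 in wild-type muscle, and its 2 probes gave 1.03 and 1.04.

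Some genes with a signal over 1000 in at least 1 pool, picked after their values were seen, also differed. A830052D11Rik had 4528 in FOXO1-Tg muscle and 9740 in wild-type muscle (−1.23 ± 0.20), and Gm5860 had 1698 in FOXO1-Tg muscle and 4194 in wild-type muscle (−1.43 ± 0.20). 5031434O11Rik had 1355 in FOXO1-Tg muscle and 579 in wild-type muscle (2.14-fold higher), and 4833418N02Rik had 521 in FOXO1-Tg muscle and 1169 in wild-type muscle (−1.30 ± 0.20). All 4 are lncRNAs whose coding neighbors, where a pair was found, stayed within 2-fold (Bin1 −0.37, Setd7 0.56 and Ttc7 −0.59). Cerox1, a lncRNA described in mouse cells as a regulator of mitochondrial complex I transcripts, had 616 in FOXO1-Tg muscle and 877 in wild-type muscle (−0.64 ± 0.20), within 2-fold.

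At the other end, the 6 brightest noncoding genes barely differed between the pools. They were Gm5523 (544212 in FOXO1-Tg muscle and 562471 in wild-type muscle, −0.18), Gm12070 (−0.12), Gm8709 (−0.05), Rn4.5s (−0.08), Gm6981 (−0.17) and Gm5069 (−0.14). All but Rn4.5s, a small RNA, are transcribed pseudogenes, so their signals carry the same limit as the other pseudogenes.

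A list of well-described lncRNAs, most of them nuclear, had 18 members on the array. None of the 16 detected members passed 2-fold in either direction. With 4.21% of all named genes higher and 3.86% lower, few calls would fall in a list of this size, and the same holds for the short lists of host genes and small RNAs. The median log2 ratio of the list was 0.08, where all named genes had −0.07. The highest was Lncpint, a lncRNA known as a target of p53, with 7641 in FOXO1-Tg muscle and 3923 in wild-type muscle (0.83 ± 0.20), and its second probe gave 0.60. Kcnq1ot1, the imprinted antisense RNA that silences the Kcnq1 region, had 2417 in FOXO1-Tg muscle and 1429 in wild-type muscle (0.63 ± 0.20, second probe 0.38). Malat1, a component of nuclear speckles, had 6656 in FOXO1-Tg muscle and 4090 in wild-type muscle (0.57 ± 0.20). Neat1, the scaffold of paraspeckles, had 85745 in FOXO1-Tg muscle and 56233 in wild-type muscle (0.48 ± 0.20). In these 4 genes the FOXO1-Tg signal was above the wild-type signal by more than the scanner error, yet by less than 2-fold.

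Most of the remaining detected members of the list, some of them dim, lay nearer to zero. Norad, a mainly cytoplasmic lncRNA that binds Pumilio proteins, had 14054 in FOXO1-Tg muscle and 16363 in wild-type muscle (−0.35 ± 0.20), and its 4 probes ranged from −0.54 to −0.17. Tug1 gave −0.09, with an SD of 0.05 over 10 spots of 1 probe, which shows how closely spots repeat within an array. Airn, the imprinted antisense RNA of Igf2r, gave 0.14 (second probe −0.13), Peg13 −0.04, Dleu2 −0.09, Firre 0.11 and Morrbid 0.29, and the X-inactivation center transcripts Ftx and Jpx gave 0.08 and −0.12. Fendrr, which acts in heart and body wall development in mouse, was detected in wild-type muscle only (17.4 in FOXO1-Tg muscle and 30.9 in wild-type muscle, at least 1.94-fold lower). For Pvt1 and Crnde the probes disagreed: 0.00 and 0.62 for Pvt1, and 0.06 and −0.58 for Crnde. Xist, expressed from the inactive X chromosome of female cells, was not well above background in either pool (7.82 in FOXO1-Tg muscle and 5.27 in wild-type muscle), and Pantr1 was not detected either.

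All 12 snoRNA host genes of the array were detected, and Snhg18 was the only one to pass 2-fold. It had 2560 in FOXO1-Tg muscle and 1061 in wild-type muscle (1.14 ± 0.20, 2.21-fold). The lowest was Snhg17, with 5037 in FOXO1-Tg muscle and 6383 in wild-type muscle (−0.47 ± 0.20). The other 10 lay between −0.29 and 0.30: Snhg7 (−0.29), Snhg6 (−0.19), Snhg12 (−0.15), Snhg5 (−0.14), Snhg10 (−0.11), Snhg3 (−0.09), Snhg16 (0.03), Snhg15 (0.09), Snhg1 (0.15) and Dancr (0.30). The list as a whole had a median of −0.10, close to that of all named genes.

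A list of microRNA host genes, drawn up by gene name, had 12 members on the array. Of these 9 were detected, and none passed 2-fold (median −0.09). Hairpins of the table lay within Dleu2, Dnm3os, Mir100hg, Mir17hg and Mir22hg but not within the other detected members. A hairpin missing from the table does not show that a gene holds none, and Pvt1 had no strand, which the match requires. Mirt1 and Mirt2 are on the list by name, and whether they hold microRNAs was not tested. Ftx and Snhg10 held hairpins as well and are given with the lists above. The highest was Mir17hg, the host of the miR-17-92 cluster, with 344 in FOXO1-Tg muscle and 235 in wild-type muscle (0.42 ± 0.21). Mir22hg, the host of miR-22, a microRNA abundant in muscle, had 1741 in FOXO1-Tg muscle and 1378 in wild-type muscle (0.21 ± 0.20). Mir1a-1hg, a host of the muscle microRNA miR-1, had 968 in FOXO1-Tg muscle and 1109 in wild-type muscle (−0.33 ± 0.20). Like the other detected genes of the list, Mir1a-1hg stayed within 2-fold. Mature miR-1 was not measured, so its level cannot be read from this host. Mir100hg gave −0.32 ± 0.28, Mir99ahg −0.29, Mirt1 −0.19, Dleu2 −0.09, Dnm3os, whose microRNAs are found in fibroblasts and developing skeleton, −0.06, and Pvt1 0.00. For Dnm3os the median over its 2 probes was 0.33, so its direction depended on the probe. The second of these probes was not well above background on both arrays. D7Ertd143e, known for its microRNAs in mouse embryonic stem cells and outside the list, gave −0.29 ± 0.21. Mir124-2hg, Mir9-3hg and Mirt2 were not well above background in either pool.

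The 8 small structured RNAs on the array were all detected and within 2-fold, with a median of −0.04. Picked after their values were seen, they included Terc, the RNA of telomerase, with 51.2 in FOXO1-Tg muscle and 87.9 in wild-type muscle (−0.91 ± 0.23), and Snora47, a small nucleolar RNA (−0.68 ± 0.22). Rmrp, the RNA of ribonuclease MRP, gave 0.42 and Snora74a 0.38. The labeling kit primes on poly(A) tails, which most of these RNAs lack, and how well it samples them was not tested.

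The counts of the larger classes stand beside 4.21% higher and 3.86% lower over all named genes. Among 43 detected opposite-strand transcripts of 91 on the array, 1 was higher (Ctcflos, 2.33%) and 2 were lower (Dgkeos and Emx2os, 4.65%), with a median of −0.14. Of 131 detected pseudogenes 6 were higher (4.58%) and 9 lower (6.87%), with a median of −0.05. Transcripts with RIKEN clone names had 10 higher (3.08%) and 21 lower (6.46%) of 325 (median −0.21). Predicted Gm genes had 13 higher (7.56%) and 18 lower (10.5%) of 172 (median −0.16). The remaining 66 genes had 6 higher and 6 lower (9.09% each, median −0.14). A gene can belong to more than 1 of these classes.

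**Figure D3:**
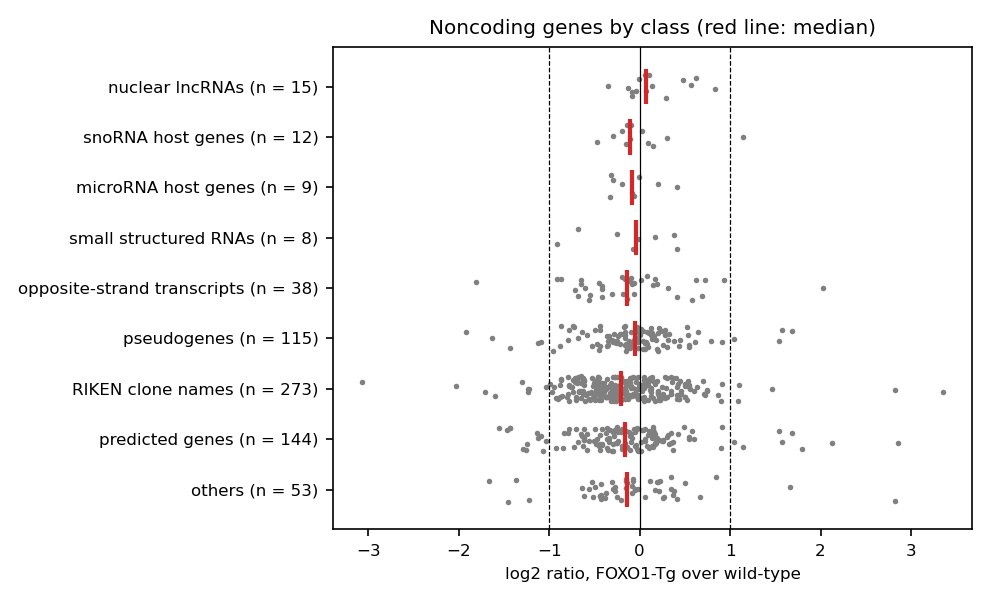
FOXO1-Tg over wild-type log2 ratio for noncoding genes detected on both arrays, by class, with each point 1 gene, red lines at the class medians and dashed lines at 2-fold. The nuclear lncRNA list, which includes the mainly cytoplasmic Norad, has 15 points, the microRNA host list 9 and the small structured RNAs 8. All of these lie within 2-fold. Of the 12 snoRNA host genes 1, Snhg18, lies beyond it.

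Several noncoding genes had more than 1 probe. Of 54 genes with several probes detected on both arrays, none had probes that differed by more than 1, 7 had a gap over 0.5, and in 15 the probes had opposite signs, with a median gap of 0.17. Within an array, 10 spots of 1 probe of Gm1943 gave an SD of 0.07 and those of 9330151L19Rik, with a mean ratio of 0.46, an SD of 0.02.

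Noncoding genes were next set beside the coding genes that overlap them or start within 2000 bases. Both genes were detected on both arrays in 291 pairs with 263 noncoding genes, and the log2 ratios had the same sign in 176 pairs (60.5%). In these pairs 64.3% of noncoding and 60.5% of coding ratios were below zero, so many pairs share a sign through that alone. Across the 291 pairs Spearman's rho was 0.17. The pairs are not independent, since all come from the same 2 arrays and some share a gene. By arrangement, rho was 0.10 over 109 divergent pairs, −0.07 over 66 antisense pairs and 0.78 over 12 pairs that overlap on the same strand, where a probe can lie in a transcript of either gene. For 99 pairs the table gave no strand (rho 0.32).

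Of the 32 higher and 52 lower noncoding genes, 39 had a coding gene in such a pair. Among 15 pairs with a higher noncoding gene, the coding gene was higher in 3, within 2-fold in 11 and not detected in 1. Among 28 pairs with a lower noncoding gene, the coding gene was lower in 4, higher in 1, within 2-fold in 21 and not detected in 2. Most of these coding neighbors were within 2-fold. The shares that passed it the same way, 3 of 15 and 4 of 28, were above those of all named genes (4.21% higher and 3.86% lower). They rest on few pairs and were not tested.

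The 3 pairs in which both genes were higher were all divergent, and the promoter windows of their noncoding genes are those shown first above. Snhg18 (1.14) stands beside Sema5a, which encodes a transmembrane semaphorin and had 2038 in FOXO1-Tg muscle and 704 in wild-type muscle (1.40 ± 0.20). Gm5144 (1.80) stands beside Npr3, the clearance receptor of natriuretic peptides, with 1493 in FOXO1-Tg muscle and 484 in wild-type muscle (1.49 ± 0.20). 2810408I11Rik (2.82) stands beside Ccnyl1, which encodes a cyclin Y-like protein and had 5145 in FOXO1-Tg muscle and 1974 in wild-type muscle (1.25 ± 0.20). 2810408I11Rik differed more than Ccnyl1. In the pairs of Snhg18 and Gm5144 the ranges given by the scanner errors of both genes overlapped, so neither gene can be said to differ more.

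In 4 pairs both genes were lower, and 3 of them are described here. Mhrt, described in mouse heart as a transcript from the opposite strand of Myh7, had 19.4 in FOXO1-Tg muscle and 45.6 in wild-type muscle (−1.36 ± 0.34). Myh7, the slow myosin heavy chain, had 15874 in FOXO1-Tg muscle and 40315 in wild-type muscle (−1.47 ± 0.20). The neighboring gene Myh6, with 269 in FOXO1-Tg muscle and 202 in wild-type muscle, gave 0.29. Myh7b, a myosin gene that formed no pair with Mhrt, was lower as well. It had 714 in FOXO1-Tg muscle and 1735 in wild-type muscle (−1.41 ± 0.20). Mhrt was thus lower together with Myh7, which it overlaps, and not with Myh6. Its signal was close to the detection limit in FOXO1-Tg muscle. Whether Mhrt followed Myh7 in particular was not tested. The others were Gm10789 (−1.07) with Tiam1, a Rac activator (−1.62), and Emx2os with Emx2, a homeobox gene that had 28.9 in FOXO1-Tg muscle and 145 in wild-type muscle (−2.46). Emx2os was not well above background in FOXO1-Tg muscle and had 39.6 in wild-type muscle (at least 2.97-fold lower).

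In other pairs only 1 gene passed 2-fold, or the genes passed it in opposite directions. E230016M11Rik, at the detection limit, had 19.6 in FOXO1-Tg muscle and 17.6, not well above background, in wild-type muscle, while Gadd45a, a stress-induced gene of atrophying muscle, had 22144 in FOXO1-Tg muscle and 2673 in wild-type muscle (2.92 ± 0.20). E030003E18Rik gave −0.61 and the retinaldehyde dehydrogenase gene Aldh1a1, which it overlaps, −2.87, with 6381 in FOXO1-Tg muscle and 42728 in wild-type muscle. C330022C24Rik, detected in wild-type muscle only, was lower while Urah, on the opposite strand, was higher, with 87.3 in FOXO1-Tg muscle and 28.2 in wild-type muscle. Dgkeos was lower (−1.81) while Dgke gave −0.81 ± 0.21, and BC031361 was higher (1.67) while Gsk3b, a kinase of insulin signaling, gave 0.40 ± 0.20. AW011738 (−1.46) overlaps Perm1, a muscle gene that acts in mitochondrial gene expression, which had 18419 in FOXO1-Tg muscle and 25149 in wild-type muscle (−0.58).

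Seen from the coding side, 12 pairs had a coding gene more than 2-fold higher, and the noncoding gene was higher in 3, lower in 1 and within 2-fold in 8. In 14 pairs the coding gene was more than 2-fold lower, and the noncoding gene was lower in 4 and within 2-fold in 10. Over all 698 detected noncoding genes 4.58% were higher and 7.45% lower. The shares that moved the same way as the coding gene were above these, but rest on few pairs and were not tested. For the imprinted antisense RNAs, Kcnq1ot1 (0.63) stood beside Kcnq1 (0.34), and Airn (0.14) beside Igf2r (−0.17) and Mas1, which had 23.1 in FOXO1-Tg muscle and 59.9 in wild-type muscle (−1.50). App, the amyloid precursor gene, was higher with 37631 in FOXO1-Tg muscle and 12941 in wild-type muscle (1.41), while its antisense transcript Gm10791 had 43.0 in FOXO1-Tg muscle and 21.1 in wild-type muscle (0.90) and did not pass 2-fold.

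**Figure D4:**
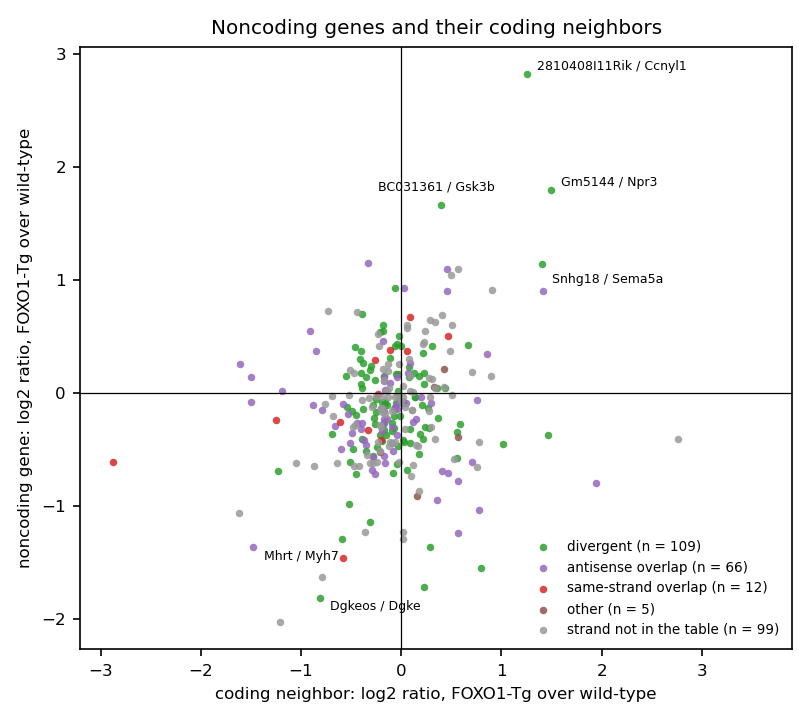
FOXO1-Tg over wild-type log2 ratio of noncoding genes (vertical axis) against that of their coding neighbors (horizontal axis) for the 291 pairs detected on both arrays, with each point 1 pair colored by arrangement. Most points lie within 1 of zero on both axes, and 2810408I11Rik, Gm5144 and Snhg18 lie at the upper right with Ccnyl1, Npr3 and Sema5a.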

How the data were processed

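Gastrocnemius RNA was pooled per group and hybridized to 1 Agilent array per group, both on 1 slide. As intensity, the authors deposited background-subtracted processed signals of Feature Extraction (11.0.1.1 in the file headers, 9.5 in the submitters' notes), unscaled between arrays. The Low Input Quick Amp kit primes on poly(A) tails. The deposited value table held the same intensity values (largest difference 0).

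Signals were converted to log2 and scaled to the 75th percentile of each array. Of 62976 spots, 237 with an outlier flag were left out, and spots of a probe were averaged. Detection of a probe required the well-above-background flag on 50% or more of its spots. Saturated spots numbered 0. Accessions were matched to the RefSeq table of GRCm38.p6 (1501 of 1559 NR_ probes matched, 58 did not), and 25 genes that also have a coding transcript were left out. As the array design uses mm9, gene positions were used only for neighbors, taken within the gene table itself. Strands came from the promoter table, in which 1629 of 1629 overlapping windows of opposite strand were reverse complements. The brightest detected NR_ probe stood for its gene. For a gene detected on 1 array, the bound was taken against the other array's detection limit, the lowest flagged signal (14.6 for FOXO1-Tg, 17.5 for wild-type), or its own value there if higher.

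Named genes were the 12 highest and 12 lowest ratios, the 4 highest and 4 lowest bounds, the 6 brightest genes, all detected nuclear lncRNAs, snoRNA and microRNA host genes, and their coding neighbors. Others were chosen after their values were seen. The result of a neighbor pair is not reported here. The members, lists and rules were chosen with earlier results of these data known. Precision is limited by the number of arrays (1 per group). Alternatives covered scaling, limma normexp (offset 50, on median signals) with quantile normalization, filters, probe choice, thresholds and the neighbor window. Scripts were tested on simulated arrays. Python 3.11.15, numpy 2.4.6, pandas 2.3.3, R 4.3.3 and limma 3.58.1 were used.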

Additional observations from a re-analysis of the deposited data

How the results depend on the processing

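No paired analysis was possible because there was only 1 pooled array per group. The count of noncoding genes more than 2-fold higher (32) became 18 with normexp and quantile normalization, 17 with genes well above background on both arrays only, 67 with no filter on dim probes, 64 at 1.5-fold and 15 at 3-fold. The count more than 2-fold lower (52) became 32 with quantile normalization, 9 with normexp and quantile normalization, 28 with both arrays only, 202 with no filter, 146 at 1.5-fold and 14 at 3-fold. With a signal of at least 100 on 1 array, a limit added after the data were seen, the counts were 20 higher and 13 lower. The larger number of lower than higher genes was turned round under quantile normalization (44 and 32), normexp with quantile normalization (18 and 9), no scaling (40 and 39), the signal limit (20 and 13) and 3-fold (15 and 14). The cause was not tested. The median of −0.15 was −0.42 with no filter and lay between −0.18 and −0.02 under the other alternatives. With neighbors within 5000 bases, 185 of 307 pairs had the same sign.

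The 73 genes named by the rule gave 648 values under the alternatives. Of these, 612 moved by less than the scanner error, 36 moved by more and 0 changed sign after passing 2-fold. Many of the 648 could not move by more. Median scaling and no scaling shifted every ratio alike, by 0.11 and 0.13, less than the smallest scanner error of 0.20. The deposited value table held the same signals, and the both-arrays filter kept the same ratios. Of the 36, 29 came under normexp with quantile normalization, which gave 73 values. There 9 of the 12 highest genes and 5 of the 12 lowest stayed past 2-fold, among them 5730420D15Rik, Gm13580, 4933401D09Rik and Hmga2-ps1. All 4 genes with the highest bounds stayed past 2-fold there, and 1 of the 4 with the lowest bounds did (Gm10373). Most of the other lowest genes had signals under 100 in both pools, and the cause of their smaller ratios was not tested. With 1 array per group, no replicate could be left out.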
